A study of Mus musculus with 48 samples.

Results

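The 6 genes described here encode the FOS and JUN proteins that form the transcription factor AP-1: Fos, Fosl1 and Fosl2 on the FOS side, and Jun, Junb and Jund on the JUN side. They were chosen by name, as the rows of the deposited tables that carry these symbols, and make up 6 of the 10967 genes named in either table. All 6 were present in the table of primary CD4+ T cells (6 of 10219 genes), and 5 in the table of the T hybridoma (5 of 10098 genes), in which no row carried the symbol Fosl1. Every member present passed the filter on low values.

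AP-1 is a dimer of leucine zipper proteins. JUN proteins can pair with each other or with a FOS protein, whereas FOS proteins need a JUN partner to bind DNA. T cell receptor signals reach these genes through MAP kinases, and in T cells AP-1 binds together with NFAT at cytokine genes such as Il2. PD-1 is an inhibitory receptor that dampens signalling from the T cell receptor.

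Capped 5′ ends of RNA were counted by CAGE (cap analysis of gene expression) in 48 libraries of 22 groups. The hybridoma, DO11.10, is a T cell line of BALB/c x AKR/J origin whose receptor recognises an ovalbumin peptide. It was given that peptide (pOVA) at 0, 1, 10, 100, 1000 or 10000 nM. The primary CD4+ T cells came from BALB/cCrSlc mice and were given 2C11, an antibody to CD3, at 0, 10, 100, 1000 or 10000 ng/ml. Each dose was applied without PD-1 engagement (unengaged) and with it (engaged). Groups held 2 libraries, except those at 10000, which held 3. The age of the mice, the way PD-1 was engaged and the time of stimulation are not given in the sources used here. Nothing says whether replicates were separate cultures or animals, so p-values measure only the spread between these libraries, which may be technical. Since RNA was taken in bulk, fewer responding cells and less RNA per cell cannot be told apart.

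Library totals were 7.79 to 19.7 M tags in the hybridoma and 4.42 to 22.8 M in CD4 cells. Levels are in RPM, the number of tags scaled to the library total, and 1 capped end gives 1 tag, so levels of different genes can be set side by side without a correction for length. A count of 3 tags corresponded to at most 0.385 RPM in the hybridoma and 0.678 RPM in CD4 cells. Of 9 T cell markers, 8 were listed in the hybridoma (Cd4 was the exception) and 9 in CD4 cells, where their summed level was 3136 to 5186 RPM. Of 10 B cell markers, 9 were listed in the hybridoma. Their sum reached 775 RPM in unengaged library 2 and 649 RPM in engaged library 2 at dose 0, against 55.6 to 199.9 RPM in the other 24 libraries. In CD4 cells 8 of these markers were listed, with sums of 335 to 845 RPM. Of 7 myeloid markers 1 was listed in each table. Of 6 cytotoxic and NK markers 1 was listed in the hybridoma and 2 in CD4 cells, at sums of at most 8.23 and 29.1 RPM.

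The start sites of the members were mostly narrow. On mm9, as deposited, Fos had 1 cluster of start sites at chr12:86814833-86814839 (plus strand) in both tables, Junb 1 cluster at chr8:87502617-87502618 (minus) in the hybridoma, and Jun 1 cluster at chr4:94718887-94718894 (minus) in the hybridoma. In CD4 cells the cluster of Jun reached from 94718871 to 94718894. The main cluster of Jund at chr8:73222834-73222837 (plus) held 99.0% of its hybridoma tags. Fosl1 had 2 clusters in CD4 cells, and the one at chr19:5447890-5447939 (plus) held 91.3% of its tags. Fosl2 had a broad main cluster at chr5:32438218-32438283 (plus) with 79.0% of its hybridoma tags and a downstream one at chr5:32438839-32438871 with 18.0%.

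The promoters of Fos and Jun are shown because these are the founding genes of the FOS and JUN sides, and because their RefSeq start is also the most upstream start in the GENCODE annotation. Of the 6 members, 5 matched the RefSeq promoter table (GRCm38.p6), and the 250 bases before the start are printed for Fos and Jun only. In the Fos window (chr12:85473640-85473889, plus strand), the capitals mark TGACGT, the core of a cAMP response element, 66 to 61 bases before the start, and the TATA box letters TATAAA at 33 to 28. In the Jun window (chr4:95052223-95052472, minus strand), they mark TGACATCA, a match to the AP-1 and ATF type motif TGANNTCA, at 45 to 38, and a match to the MEF2 motif at 33 to 24.
Fos: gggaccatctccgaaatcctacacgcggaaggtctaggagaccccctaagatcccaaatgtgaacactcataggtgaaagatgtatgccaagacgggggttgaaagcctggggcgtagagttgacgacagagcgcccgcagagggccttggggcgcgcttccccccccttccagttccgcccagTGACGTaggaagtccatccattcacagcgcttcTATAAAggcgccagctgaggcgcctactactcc
Jun: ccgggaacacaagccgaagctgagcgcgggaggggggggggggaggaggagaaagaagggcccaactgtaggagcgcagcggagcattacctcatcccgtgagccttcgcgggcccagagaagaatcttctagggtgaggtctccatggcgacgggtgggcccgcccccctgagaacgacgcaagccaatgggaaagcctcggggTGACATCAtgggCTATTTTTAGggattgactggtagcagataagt
On both strands, TGACGT occurred in 6.47% of 32851 mouse promoter windows of this length, TGANNTCA in 11.9% and the MEF2 motif in 2.92%, and TATAAA on the gene's strand in 7.59%. The shorter AP-1 motif TGANTCA, found in 6.75% of windows, was in neither printed window. The windows of Fosl2 and Junb, not printed, held none of the motifs named here. That of Jund held a match to TGANNTCA, 61 to 54 bases before the start. The marked matches do not overlap. They describe letters only, and binding was not measured.

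The first comparison gives the response to antigen alone in the hybridoma, as pOVA against dose 0 without engagement, tested with limma on log2(RPM + 1) and called at an adjusted p under 0.05 over 10094 genes. Fosl2, Fos, Junb and Jun rose, and Jund did not pass: 4 of 5 members at 10000 nM, where 28.8% of all genes were called and 8.09% were higher. At 1 and 10 nM no member was called with limma, edgeR or DESeq2 (1 and 0 members had an unadjusted p under 0.05), where 0 and 0.0297% of all genes were. At 100 nM Fosl2, Fos and Junb were called (6.03% of all genes, 2.84% higher) and at 1000 nM also Jun (30.6%, 7.14% higher). The tests of single doses share the dose 0 libraries.

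Fosl2, which encodes the FOS protein FRA-2, was the most abundant FOS gene of the hybridoma. Its unengaged libraries held 38.2 and 49.4 RPM at dose 0, 38.9 and 32.01 at 1 nM, 48.4 and 32.4 at 10 nM, 149 and 166 at 100 nM, 316 and 262 at 1000 nM, and 336, 312 and 324 at 10000 nM. All libraries from 100 nM upward thus lay above all libraries up to 10 nM. The mean went from 43.8 ± 7.93 RPM (SD, n = 2) at dose 0 to 324 ± 12.2 (n = 3) at 10000 nM, a 7.40-fold rise (2.87 on the log2 scale, SE 0.20, limma adjusted p = 3.34e-09).

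Fos, the classical immediate early gene, was far less abundant. It held 1.48 and 1.00 RPM at dose 0, 5.79 and 7.09 at 100 nM, 15.1 and 9.04 at 1000 nM, and 9.89, 11.8 and 8.35 at 10000 nM. The groups at 100 nM and above did not overlap with dose 0. At 10000 nM the level of Fos was 8.08 times that at dose 0 (log2 difference 2.29, SE 0.22, adjusted p = 2.95e-07 with limma), but its mean of 10.02 ± 1.74 RPM (n = 3) remained a small part of the 324 RPM of Fosl2.

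Junb, a JUN protein with its own growth-restraining role in many cells, was at 39.0 and 73.0 RPM at dose 0 and reached 148 and 133 RPM at 100 nM and 164, 194 and 137 RPM at 10000 nM. The higher dose 0 value belonged to library 2, which also held the high B cell marker sum; their part in this value was not tested. The rise of Junb was 2.94-fold (1.59 on the log2 scale, SE 0.24, limma adjusted p = 7.78e-05). Its mean was 53.4 RPM at 10 nM, 141 RPM at 100 nM and 165 RPM at 10000 nM. Without unengaged library 1 at dose 0, Junb was called lower at 1 nM (log2 difference -0.99, adjusted p = 0.0279 with limma), since only library 2 then stood for dose 0.

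Jun, which encodes c-Jun, was close to the floor of detection in the hybridoma. At dose 0 its libraries held 0.09 and 0.53 RPM (1 and 9 tags), at 100 nM 1.15 and 1.61 RPM (19 and 20 tags), at 1000 nM 1.91 and 3.06 RPM, and at 10000 nM 3.22, 2.54 and 2.83 RPM. The levels at 100 nM and above did not overlap with dose 0. The higher dose 0 value was that of library 2, which also held the high B cell marker sum, and the link was not tested. Jun was called at 1000 nM (log2 difference 1.41, SE 0.27, adjusted p = 0.000898 with limma) and at 10000 nM (1.58, SE 0.24, adjusted p = 0.000104). At 100 nM the adjusted p was 0.06 with limma. It was 0.0436 with replicate number as a block, 0.0269 and 0.0273 without engaged library 1 or 2 at dose 0, 0.0411 with quantile normalization, 0.025 with DESeq2 and 0.00157 with the B cell markers as a covariate. The engaged dose 0 libraries are not part of this comparison and entered the fit through the pooled spread. With only the groups compared, the calls of Fos and Junb at 100 nM (adjusted p = 0.0712 and 0.123) and of Jun at 1000 nM (adjusted p = 0.0881) were lost.

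Jund was the most abundant member without stimulation, at 151 and 131 RPM at dose 0, and held 188, 197 and 126 RPM at 10000 nM, so that these groups overlapped. Its log2 difference was 0.25 (SE 0.26, adjusted p = 0.479 with limma). With replicate number as a block it was 0.50 (adjusted p = 0.0242, where 25.7% of all genes were called). Library 3, the low one, had no counterpart of that number at dose 0.

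**Figure D1:**
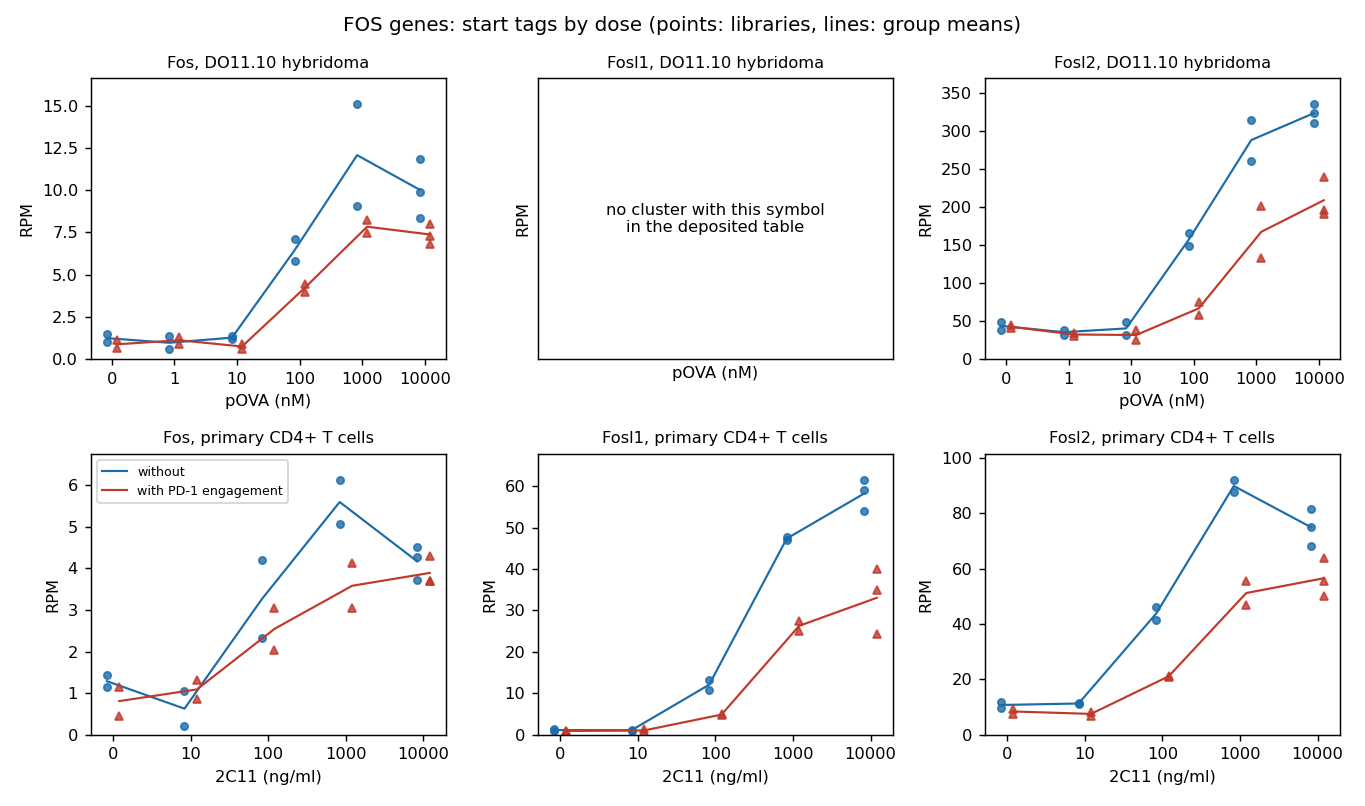
Start tags (RPM, linear axes) of Fos, Fosl1 and Fosl2 by dose in the hybridoma (top) and in CD4 cells (bottom); points are libraries and lines join group means, blue without and red with PD-1 engagement. In the hybridoma Fosl2 climbed from 43.8 RPM to 324 RPM without engagement, and the engaged libraries from 100 nM upward all lay lower.

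With engagement the same 4 members still rose from dose 0 to 10000 nM, where 26.4% of all genes were called and 7.05% were higher: Fosl2 by 2.26, Fos by 2.17, Jun by 2.15 and Junb by 1.66 on the log2 scale. Jund was again not called (0.03, SE 0.26, adjusted p = 0.944 with limma).

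In primary CD4+ T cells, 2C11 at 10000 ng/ml raised all 3 FOS genes and Junb and lowered Jun, while Jund did not pass. These 5 of 6 called members stand beside 67.7% called among all 10217 genes tested, so the count itself is close to the background. On this scale the median of all genes moved by -0.15 at 10000 ng/ml, and by -0.18 in the hybridoma at 10000 nM, and differences of members are to be read against these shifts. At 10 ng/ml no member was called with limma, edgeR or DESeq2 and none had an unadjusted p under 0.05, where 0% of all genes were called. At 100 ng/ml 5 of 6 members were called (26.4% of all genes) and at 1000 ng/ml 5 of 6 (61% of all genes).

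Fosl1, which encodes FRA-1, had the steepest rise of the 6. It was at 1.501 and 0.803 RPM at dose 0 and at 0.93 and 1.27 RPM at 10 ng/ml, then at 10.8 and 13.3 RPM at 100 ng/ml, 47.0 and 47.7 RPM at 1000 ng/ml and 59.1, 61.6 and 54.05 RPM at 10000 ng/ml. No library of one of these last groups overlapped with the group below it. From dose 0 to 10000 ng/ml the mean went from 1.15 ± 0.494 RPM (n = 2) to 58.2 ± 3.83 RPM (n = 3), a 50.6-fold rise (4.80 on the log2 scale, SE 0.18, limma adjusted p = 7.84e-14).

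Fosl2 started higher, at 12.01 and 9.53 RPM, and held 41.5 and 46.1 RPM at 100 ng/ml, 87.6 and 92.2 RPM at 1000 ng/ml and 81.5, 74.9 and 68.3 RPM at 10000 ng/ml. The 1000 ng/ml libraries were the highest, above all 3 at 10000 ng/ml. The rise at 10000 ng/ml was 6.96-fold (2.69 on the log2 scale, SE 0.12, limma adjusted p = 8.40e-13). With the 58.2 RPM of Fosl1, Fosl2 at 74.9 ± 6.58 RPM made up most of the FOS tags of stimulated CD4 cells. Fos itself was at 1.43 and 1.15 RPM at dose 0 and at 4.27, 3.73 and 4.50 RPM at 10000 ng/ml, after 6.13 and 5.06 RPM at 1000 ng/ml. It rose 3.23-fold at 10000 ng/ml (difference 1.17, SE 0.25, adjusted p = 0.000344 with limma). The call of Fos at 100 ng/ml (0.87, adjusted p = 0.0232) was lost without unengaged library 1 or 2 at dose 0 or without unengaged library 2 at 100 ng/ml (adjusted p = 0.0655, 0.131 and 0.298).

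The clusters of Fosl2 did not rise evenly in CD4 cells. The upstream cluster (chr5:32438215-32438258, mm9) held 45.8% and 45.8% of the Fosl2 tags in the dose 0 libraries and 62.0 to 70.1% at 10000 ng/ml, with 53.0 ± 3.04% (n = 2) at 100 ng/ml and 63.07 ± 3.44% (n = 2) at 1000 ng/ml. In a fit over 17269 clusters, it rose by 3.09 (SE 0.13) and the downstream cluster at 32438835 to 32438871 by 1.96 (SE 0.20) on the log2(RPM + 1) scale. The share was 20.01 percentage points higher at 10000 ng/ml than at dose 0. An exact two-sided permutation test gave p = 0.2, and with 2 against 3 libraries there are only 10 regroupings, so that the design cannot reach 0.05. In the hybridoma, where the upstream cluster held 84.8 ± 1.21% at dose 0, its share at 10000 nM was lower, at 78.9 ± 1.41% (n = 3).

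Jun went down in CD4 cells, where it was listed at far higher levels than in the hybridoma, in a table normalised separately and without a test of that gap. Its libraries held 41.7 and 40.5 RPM at dose 0, 41.0 and 21.2 RPM at 10 ng/ml, 25.2 and 22.1 RPM at 100 ng/ml, 22.4 and 19.4 RPM at 1000 ng/ml and 20.6, 18.4 and 18.9 RPM at 10000 ng/ml. The libraries from 100 ng/ml upward all lay below those at dose 0, and the 10 ng/ml libraries were spread over that whole range. The mean at 10000 ng/ml was 0.469 times that at dose 0 (log2 difference -1.06, SE 0.25, adjusted p = 0.00102 with limma). At 100 ng/ml the difference (-0.78, adjusted p = 0.0422) missed the threshold without unengaged library 1 or 2 at dose 0, unengaged library 1 or 2 at 100 ng/ml or unengaged library 3 at 10000 ng/ml (adjusted p from 0.0501 to 0.216).

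Junb rose by less than in the hybridoma. It was at 68.9 and 61.9 RPM at dose 0 and at 104.7, 95.0 and 89.3 RPM at 10000 ng/ml, without overlap, a 1.47-fold rise (0.55 on the log2 scale, SE 0.09, limma adjusted p = 2.00e-05). At 100 ng/ml the call of Junb (0.37, adjusted p = 0.00897) was lost without unengaged library 2 at dose 0 or unengaged library 1 at 100 ng/ml (adjusted p = 0.109 and 0.101) and with quantile normalization, edgeR and DESeq2 (0.25 in each, adjusted p = 0.0767, 0.0925 and 0.116). Jund was the most abundant member in CD4 cells too. It stood at 193 and 175 RPM at dose 0, 228 and 232 RPM at 100 ng/ml, and 156, 153 and 147 RPM at 10000 ng/ml. Its groups at dose 0 and 10000 ng/ml did not overlap, but the difference was not called in the fit that pools the spread of all CD4 libraries (-0.27, SE 0.22, adjusted p = 0.281 with limma). It was called with only the groups compared (adjusted p = 0.005) or without engaged library 1 at 10000 ng/ml (adjusted p = 0.0241).

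**Figure D2:**
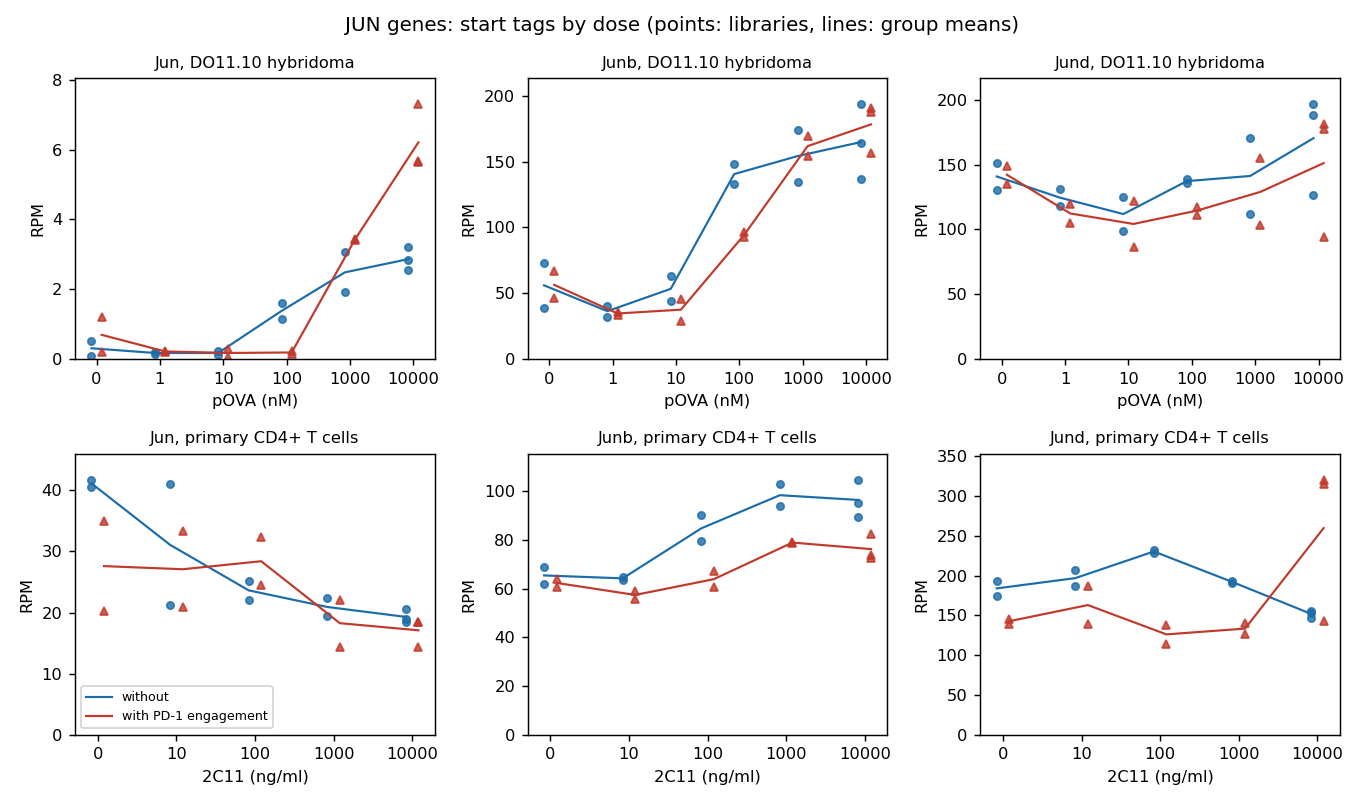
Start tags (RPM, linear axes) of Jun, Junb and Jund by dose in the hybridoma (top) and in CD4 cells (bottom); points are libraries and lines join group means, blue without and red with PD-1 engagement. Jun climbed from near 0 in the hybridoma and fell from 41.1 RPM to 19.3 RPM in CD4 cells, and the engaged Jund libraries at 10000 ng/ml lay far apart.

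With engagement, the rise from dose 0 to 10000 ng/ml was 4.12 for Fosl1, 2.61 for Fosl2, 1.46 for Fos and 0.28 for Junb on the log2 scale, Jun was lower by -0.62, and Jund was higher by 0.77 (adjusted p = 0.00481 with limma). All 6 members were called there, as were 64.8% of all genes. The call of Jun (adjusted p = 0.0363) was lost without engaged library 1 at dose 0 (-0.24, adjusted p = 0.495), without engaged library 2 at 10000 ng/ml (adjusted p = 0.118) and with B cell markers as a covariate (adjusted p = 0.136). That of Junb (adjusted p = 0.00893) was lost without engaged library 1 at dose 0 (adjusted p = 0.0787), with quantile normalization (0.02), edgeR and DESeq2, and that of Jund with quantile normalization (0.50, adjusted p = 0.0658).

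The responses at the top dose were compared between the systems in 1 joint limma fit of 9350 shared genes, in which 39.9% of genes differed. Jun differed most among the 5 shared members, by 2.63 (SE 0.35, adjusted p = 4.54e-07), since it rose in the hybridoma and fell in CD4 cells. Fos rose by 1.12 more (SE 0.33, adjusted p = 0.00757) and Junb by 1.04 more (SE 0.27, adjusted p = 0.00238) in the hybridoma. Without unengaged library 1 at dose 0 of the hybridoma, the difference for Junb was 0.60 (adjusted p = 0.07 with limma). For Fosl2 (0.18, SE 0.24) and Jund (0.52, SE 0.36) no difference was detected (adjusted p = 0.602 and 0.265 with limma). The systems also differ in stimulus, and the 2 tables were made separately, so only differences within each table were compared.

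The make-up of the pool of FOS and JUN tags changed with dose in both systems, given here without a test. In the unengaged hybridoma, the summed level of the members went from 242 ± 17.7 RPM (n = 2) at dose 0 to 672 ± 64.4 RPM (n = 3) at 10000 nM. The share of Fosl2 went from 18.01 ± 1.96% to 48.5 ± 5.36%, that of Jund from 58.5 ± 10.2% to 25.1 ± 3.49%, and that of Junb stayed near its start (22.8 ± 8.25% and 24.4 ± 2.28%). In unengaged CD4 cells the sum went from 304 ± 21.3 RPM to 405 ± 21.7 RPM, the share of Fosl1 from 0.375 ± 0.136% to 14.4 ± 0.669%, that of Fosl2 from 3.53 ± 0.329% to 18.5 ± 0.636%, and that of Jun from 13.6 ± 0.67% to 4.77 ± 0.22%. With engagement at the top dose, Fosl2 made up 38.2 ± 4.80% of the hybridoma pool and Junb 32.4 ± 1.91%.

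**Figure D3:**
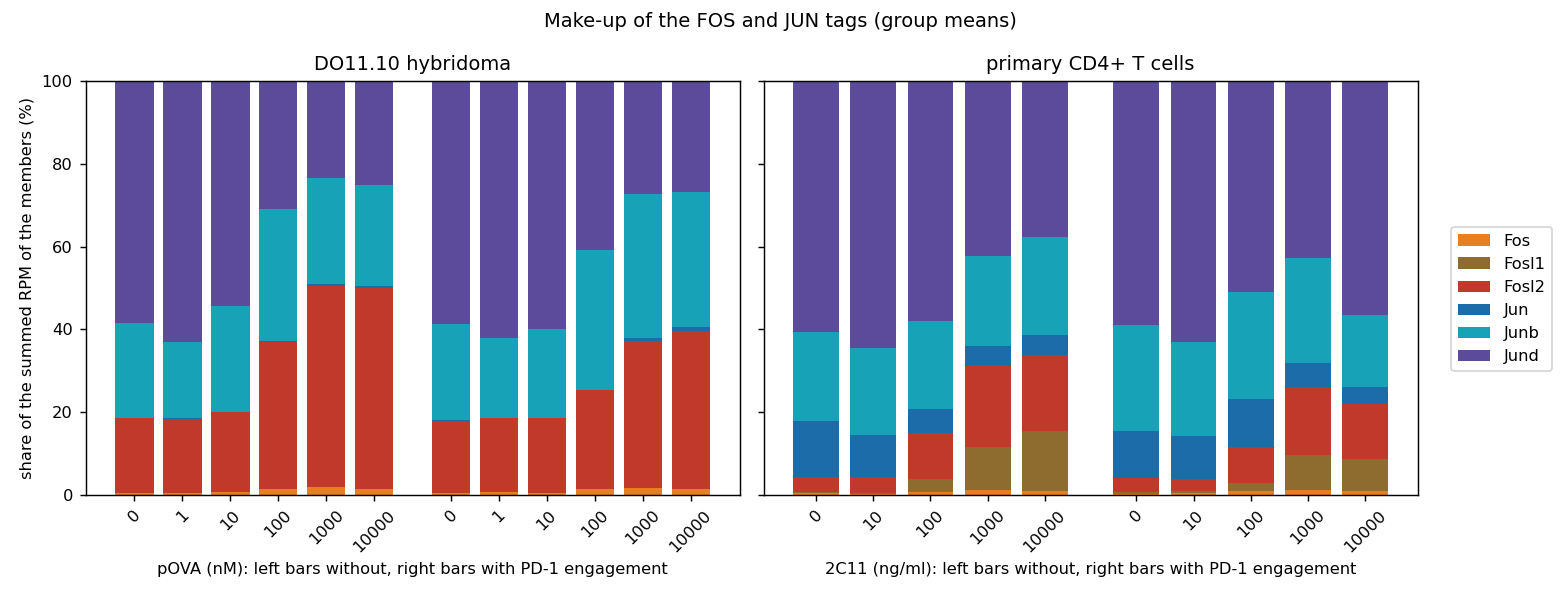
Share (%) of each member in the summed RPM of the FOS and JUN genes at each dose, as group means, in the hybridoma (left panel, Fosl1 has no row there) and in CD4 cells (right panel); in each panel the left bars are without and the right bars with PD-1 engagement. The Fosl2 segment of the hybridoma grows from 18.01% to 48.5% without engagement and to 38.2% with it.

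The next comparison asks what PD-1 engagement changed, as engaged minus unengaged libraries, first as the mean over the stimulated doses and then dose by dose. It uses the same unengaged libraries as the stimulation comparison. In the hybridoma, Fosl2 was the 1 member of 5 that was lower by limma (mean log2 difference -0.63, SE 0.09, adjusted p = 0.0011), where 0.931% of all genes were called and 0.872% were lower. Engaged and unengaged libraries of the same number resembled each other in the hybridoma, so a fit with these pairs as blocks was also made. In it 4 members were lower, where 6.51% of all genes were called: Fosl2 (adjusted p = 2.65e-07), Jund (-0.17, adjusted p = 0.00368), Junb (-0.19, adjusted p = 0.00954) and Fos (-0.34, adjusted p = 0.0453), all with limma. At dose 0 no member was called in either fit or by edgeR or DESeq2, none had an unadjusted p under 0.05, and 0% of all genes were called. At 1 and 10 nM the same held in the fit without pairs, where 0 and 0.0396% of all genes were called. The effect under stimulation minus that at dose 0 was called for no member without pairs (0% of all genes; 1 member had an unadjusted p under 0.05, and none was called with edgeR), and for Fosl2 with pairs (-0.60, adjusted p = 0.0319 with limma, where 0.0693% of all genes were called).

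Engaged Fosl2 libraries of the hybridoma held 40.8 and 44.4 RPM at dose 0, 34.3 and 30.6 at 1 nM, 37.8 and 25.6 at 10 nM, 58.1 and 75.5 at 100 nM, 202 and 134 at 1000 nM, and 241, 191 and 197 at 10000 nM. From 100 nM upward they did not overlap with the unengaged libraries of the same dose. The mean difference was largest at 100 nM (-1.23, SE 0.22, adjusted p = 0.00867 with limma, where 0.495% of all genes were called and 0.485% were lower). This call was lost without unengaged library 1 or 2 or engaged library 1 at 100 nM (adjusted p = 0.0908, 0.143 and 0.242). At 1000 nM (-0.80) and 10000 nM (-0.64) the adjusted p was 0.433 and 0.239, and with the pairs as blocks 0.000379 and 0.000169. DESeq2 called both doses and edgeR the latter (adjusted p = 0.0492). In the fit without pairs 0.0793% and 0.406% of all genes were called at these doses, and with the pairs as blocks 7.34% and 2.52%. Summed over the stimulated doses, engagement took away 52.9% of the rise of Fosl2. The half-maximal dose is read from the group means, at the level midway between dose 0 and the top dose of each curve. For Fosl2 it was 160 nM without and 386 nM with engagement.

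The engaged Fos libraries lay below the unengaged ones at 10, 100, 1000 and 10000 nM, with 4.46 and 3.95 RPM at 100 nM, 7.46 and 8.21 RPM at 1000 nM and 8.02, 7.31 and 6.80 RPM at 10000 nM. At single doses Fos was not called in either fit. Its rise was smaller by 31.2% with engagement. Engaged Junb libraries were at 96.2 and 92.8 RPM at 100 nM, below the unengaged 148 and 133 RPM, and at 169.6 and 154 RPM at 1000 nM and 188, 191 and 156 RPM at 10000 nM, all within the unengaged ranges. With the pairs as blocks Junb was lower at 100 nM (-0.57, adjusted p = 0.00207 with limma) and at 10 nM (-0.51, adjusted p = 0.0421), and at 1000 and 10000 nM the differences were 0.08 and 0.12. That fit called 4.22% of all genes at 100 nM and 0.149% at 10 nM. The half-maximal dose of Junb was 45.1 nM without and 219 nM with engagement, and its rise was smaller by 16.5%. Jund differed by -0.26 to 0.02 at the 6 doses and was not called at any of them in either fit.

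Jun went from lower to higher with engagement as the dose rose, as Junb did by less (-0.57 at 100 nM and 0.12 at 10000 nM). At 100 nM the engaged Jun libraries held 0.16 and 0.22 RPM, which were 2 and 3 tags, against 1.15 and 1.61 RPM (19 and 20 tags) without engagement. At 10000 nM the order was the opposite: engaged libraries held 5.64, 5.68 and 7.31 RPM (97, 112 and 115 tags), above the unengaged 3.22, 2.54 and 2.83 RPM (39, 29 and 22 tags). At 1000 nM the engaged values of 3.44 and 3.42 RPM also lay above the unengaged 1.91 and 3.06 RPM. The percent of the summed rise lost was -22.1 for Jun, a larger rise with engagement. Its half-maximal dose was 154 nM without and 1019 nM with engagement, each relative to the top dose of its own curve. The engaged mean still rose 1.81-fold from 1000 to 10000 nM, so these doses do not refer to the same level. The difference between engaged and unengaged libraries was -0.99 (SE 0.27) at 100 nM, 0.37 (SE 0.27) at 1000 nM and 0.90 (SE 0.22) at 10000 nM.

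None of these differences of Jun passed in the fit without pairs (adjusted p = 0.168, 1 and 0.103 with limma). With the pairs as blocks the 100 nM and 10000 nM differences were called (adjusted p = 0.0129 and 0.00937), where 4.22% and 2.52% of all genes were. The change of the effect between these doses was also called (1.89, adjusted p = 0.00818, where 0.466% of all genes were called). This comparison of doses was not planned, here or below, so its p-values are not those of a test fixed beforehand. In the fit without pairs that change had an adjusted p of 0.191 with limma (0% of all genes were called), and of 0.0402 and 0.0417 without engaged library 1 or 2 at dose 0. It was also called with DESeq2 (adjusted p = 0.0225), quantile normalization (0.0464), a pseudocount of 3 RPM (0.0456) and B cell markers as a covariate (0.0033), and that covariate also gave a call of Jun at 100 nM (-1.06, adjusted p = 0.00533) and at 10000 nM (0.84, adjusted p = 0.0124). The 10000 nM difference was also called with quantile normalization (adjusted p = 0.0347), with a pseudocount of 3 RPM (adjusted p = 0.00985), in the fit over 18014 clusters (adjusted p = 0.0473) and without engaged library 1 or 2 at dose 0 (adjusted p = 0.0328 and 0.0337), but not with edgeR or DESeq2 (adjusted p = 0.489 and 0.275). Levels near the tag floor make the size of the difference at 100 nM uncertain.

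**Figure D4:**
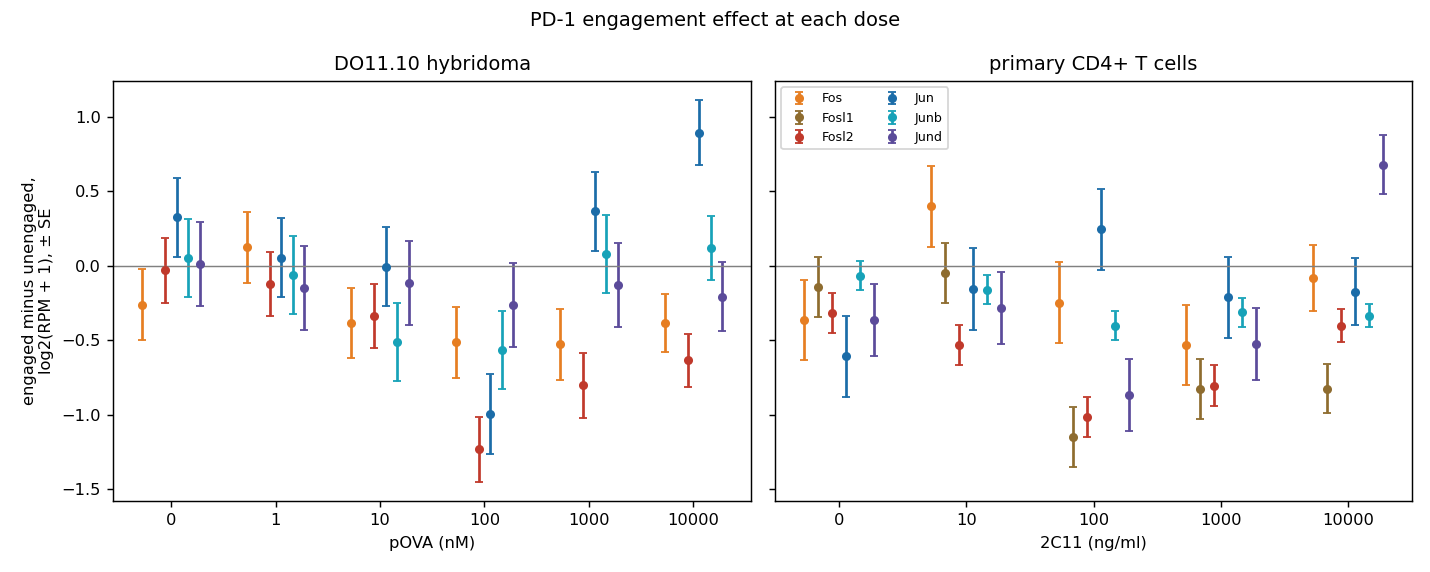
Difference between engaged and unengaged libraries in log2(RPM + 1), with its SE from the fit without pairs, at each dose for the members in the hybridoma (left) and in CD4 cells (right); the line at 0 marks no difference. Fosl2 is lowest at 100 nM (-1.23) and 100 ng/ml (-1.02), and Jun in the hybridoma crosses from -0.99 at 100 nM to 0.90 at 10000 nM.

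In CD4 cells, engagement lowered Fosl1 and Fosl2 and, more weakly, Junb. These 3 of 6 members were called for the mean over stimulated doses, beside 45.6% of all genes, with 4205 genes (41.2%) lower and 458 higher. The median of all genes was itself shifted by -0.14, and by -0.23 with engagement at dose 0. With quantile normalization, 1301 genes were lower and 1440 higher, and Fosl1 and Fosl2 were called while Junb was not. Fosl1 had a mean log2 difference of -0.71 (SE 0.10, adjusted p = 2.76e-05 with limma; -0.57 with quantile normalization). Fosl2 had a difference of -0.69 (SE 0.06, adjusted p = 1.09e-06; -0.51 with quantile normalization). Junb had one of -0.30 (SE 0.05, adjusted p = 8.06e-05), which was -0.13 with quantile normalization (adjusted p = 0.0606) and -0.15 with edgeR (adjusted p = 0.0384). Fos (-0.11) and Jun (-0.07) were not called, and both were above 0 under edgeR and DESeq2, as was Jun with quantile normalization. At dose 0 no member was called (14.4% of all genes; 2 members had an unadjusted p under 0.05, and none was called with edgeR or DESeq2), though Jund was with only the groups compared (-0.36, adjusted p = 0.0175 with limma). The effect under stimulation did not differ from that at dose 0 for any member with limma, where 0.0196% of all genes did (3 members had an unadjusted p under 0.05).

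The B cell marker sum of CD4 libraries at 100 ng/ml and above was 569 to 845 RPM with and 367 to 630 RPM without engagement. With the mean level of these markers as a covariate the same 3 members were called.

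Engaged Fosl1 libraries held 4.97 and 4.77 RPM at 100 ng/ml, 25.0 and 27.6 RPM at 1000 ng/ml and 39.9, 34.9 and 24.3 RPM at 10000 ng/ml. At each of these doses they lay below the unengaged ones without overlap. The differences were -1.15 (SE 0.20), -0.83 (SE 0.20) and -0.83 (SE 0.17), each called with limma (adjusted p = 0.000485, 0.00794 and 0.00551). Beside them 39.2%, 22.7% and 8.48% of all genes were called, and the median of all genes was -0.29, -0.17 and 0.02. The call at 1000 ng/ml was lost without unengaged library 2 or engaged library 1 of that dose (adjusted p = 0.0562 and 0.0627). Engagement took away 46.1% of the summed rise of Fosl1, whose half-maximal dose was 316 ng/ml without and 368 ng/ml with it.

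Engaged Fosl2 libraries held 9.16 and 7.68 RPM at dose 0, 6.96 and 8.13 at 10 ng/ml, 21.03 and 21.2 at 100 ng/ml, 55.4 and 47.0 at 1000 ng/ml and 64.0, 55.6 and 50.1 at 10000 ng/ml. They lay below the unengaged libraries at all 5 doses. The difference was -1.02 (SE 0.14, adjusted p = 6.87e-05 with limma) at 100 ng/ml and -0.40 (SE 0.11, adjusted p = 0.0297) at 10000 ng/ml, beside 39.2% and 8.48% of all genes. This change of the effect was itself called (0.61, SE 0.17, adjusted p = 0.0143 with limma), where 27.1% of all genes were called and the median of all genes changed by 0.29. It was lost without unengaged library 2 at 100 ng/ml (adjusted p = 0.0863) and with quantile normalization (0.31, adjusted p = 0.219), edgeR and DESeq2. The call at 10000 ng/ml was lost without unengaged library 1 or 2 or engaged library 2 or 3 of that dose (adjusted p from 0.0663 to 0.149), when B cell markers were a covariate (0.0615) and with only the groups compared (0.0674). Engagement took away 41.9% of the summed rise, and the half-maximal dose was 93.4 ng/ml without and 239 ng/ml with it. The unengaged mean was higher at 1000 ng/ml (89.9 RPM) than at the top dose (74.9 RPM), so 93.4 ng/ml does not refer to the maximum of that curve. The engaged mean was highest at the top dose, so these doses rest on unlike references. Fos lost 7.47% of its summed rise.

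Engaged Junb libraries lay below the unengaged ones from 10 ng/ml upward, with 79.03 and 78.7 RPM against 93.8 and 102.8 RPM at 1000 ng/ml. Junb was called at 100, 1000 and 10000 ng/ml (-0.40, -0.31 and -0.33; adjusted p = 0.00404, 0.0276 and 0.0148 with limma), beside 39.2%, 22.7% and 8.48% of all genes. The first 2 of these calls were lost with quantile normalization (-0.09 and -0.10), edgeR and DESeq2. The call at 1000 ng/ml was lost without any 1 of its 4 libraries (adjusted p from 0.0517 to 0.207), that at 10000 ng/ml without unengaged library 1 or engaged library 3 (adjusted p = 0.0803 and 0.0666), and those at 100 and 10000 ng/ml with only the groups compared (adjusted p = 0.054 and 0.0677).

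Jund moved both ways in CD4 cells. Engaged libraries held 114 and 138 RPM at 100 ng/ml against 228 and 232 RPM unengaged (-0.87, SE 0.24, adjusted p = 0.00889 with limma, where 39.2% of all genes were called). At 10000 ng/ml they held 144, 321 and 315 RPM against 156, 153 and 147 RPM (0.68, SE 0.20, adjusted p = 0.0375, where 8.48% of all genes were called). Engaged library 1 thus lay below every unengaged library of that dose and the other 2 far above them. Against the mean of the other libraries of its group, its gap for Jund was -1.14 on the log2 scale, and 0.819% of genes in that library had a larger gap. The change of the effect between these doses was 1.55 (SE 0.31, adjusted p = 0.0014 with limma). Beside it 27.1% of all genes were called, and the median of all genes changed by 0.29.

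These calls of Jund rested on few libraries. The call at 100 ng/ml was lost without unengaged library 2 or engaged library 1 of that dose (adjusted p = 0.0628 and 0.081) and with quantile normalization (-0.65, adjusted p = 0.0831), edgeR and DESeq2. That at 10000 ng/ml was lost without unengaged library 1, 2 or 3 or engaged library 2 or 3 (adjusted p from 0.0741 to 0.192) and with only the groups compared (adjusted p = 0.152). The change of the effect held at 1.36 (adjusted p = 0.0114) with quantile normalization and was 1.35, 1.37 and 1.93 without each engaged library at 10000 ng/ml in turn. Over all stimulated doses the mean difference of Jund was -0.25 (adjusted p = 0.0833 with limma), and it was called without engaged library 1, 2 or 3 at 10000 ng/ml (-0.15, -0.30 and -0.30, adjusted p = 0.0276, 0.031 and 0.0362). Without engaged library 1 at 10000 ng/ml, Jund was also called at dose 0 (-0.36, adjusted p = 0.0343) and at 1000 ng/ml (-0.52, adjusted p = 0.00307; 0.00135 with only the groups compared), and Fosl2 at 10 ng/ml (-0.53, adjusted p = 0.0458).

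Jun in CD4 cells was not called for engagement at any dose in the limma fit of all CD4 libraries. Its engaged libraries held 34.9 and 20.3 RPM at dose 0, below the unengaged 41.7 and 40.5 RPM, and 18.5, 14.4 and 18.4 RPM at 10000 ng/ml, overlapping with 20.6, 18.4 and 18.9 RPM. With B cell markers as a covariate Jun was higher with engagement at 100 ng/ml (0.58, adjusted p = 0.0396 with limma, against 0.24 and 0.492 without it). At 10 ng/ml no member was called in that fit or with edgeR or DESeq2 (0.754% of all genes), and Fosl2 alone had an unadjusted p under 0.05 (-0.53, adjusted p = 0.0606). Fosl2 was called there with B cell markers as a covariate (adjusted p = 0.037).

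Between the systems, the mean engagement effect was not called different for any of the 5 shared members (adjusted p from 0.354 to 0.788 with limma, where 13.1% of genes were called). For Fosl2 the difference between the systems was 0.06 (SE 0.12). At single doses the lowest adjusted p of a member was that of Jun at 100 (-1.24, SE 0.39, adjusted p = 0.0886) and at 10000 (1.07, SE 0.32, adjusted p = 0.0992), where 1.16% and 0.834% of genes were called, and at 1000 it was 0.393 (3.82% of genes), all with limma. The change of the effect from dose 100 to dose 10000, in nM or ng/ml, differed for Jun by 2.31 (SE 0.50, adjusted p = 0.0149, where 3.75% of genes were called), and without unengaged CD4 library 2 at 100 ng/ml by 2.21 (adjusted p = 0.0732). For Jund it differed by -1.50 (SE 0.51, adjusted p = 0.093), and it was called without unengaged hybridoma library 3 (adjusted p = 0.0413), engaged hybridoma library 1 (adjusted p = 0.0498) or engaged CD4 library 1 (adjusted p = 0.00606) at the top dose.

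Other genes of the pathway were read from 3 lists: 20 dimer partners of the basic leucine zipper family, 26 kinases and factors that feed AP-1, and 20 target genes. In the stimulated hybridoma 5 of 18 tested partners were higher and 3 lower, with a median log2 difference of 0.08 against -0.18 for all genes, of which 8.09% were higher and 20.8% lower. Fosb, the FOS family gene outside the 6 members, went from 2.14 ± 0.262 RPM (n = 2) to 14.8 ± 5.44 RPM (n = 3), and Atf3, a stress-induced partner of JUN proteins, from 0.605 ± 0.0636 to 5.73 ± 1.62 RPM (log2 differences 2.27 and 2.04, adjusted p = 8.11e-05 and 1.36e-05 with limma). Maff rose by 1.49. Of 25 kinases and factors, 5 were higher and 6 lower (median -0.17). Elk3, an ETS factor that acts at serum response elements, rose by 2.12 and Map2k3, a kinase of the p38 pathway, by 1.42, whereas Rasgrp1, which activates RAS below the T cell receptor, had a difference of -1.14. Of 13 targets 11 were higher and 1 lower (median 1.55). Only these 13 of the 20 listed targets had a row. The list was chosen with earlier results of these data known. A target silent at dose 0 could pass the filter on low values only through stimulated libraries. Choice and filter thus favoured a high count of higher targets. Il2 was at 0 in both dose 0 libraries and at 9.11 ± 1.23 RPM (n = 3) at 10000 nM, and Tnf went from 26.0 to 197 RPM.

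With engagement in the hybridoma, no partner and no kinase or factor was called with limma (4 of 18 and 4 of 25 had an unadjusted p under 0.05). Of 13 targets 4 were lower, beside 0.872% of all genes (median -0.30 against -0.00 for all genes). The choice of the list and the filter could favour lower targets here, since a target silent at rest may pass mainly through unengaged stimulated libraries. With the pairs as blocks 1 partner was higher and 3 lower, 1 kinase or factor higher and 6 lower, and 1 target higher and 9 lower, beside 201 genes higher and 456 lower overall. With quantile normalization 3 partners were lower. The largest differences among the targets were those of Fasl (-0.93), Il2 (-0.72) and Il3 (-0.68), with adjusted p = 1.79e-06, 5.26e-05 and 0.000616 with limma. Il3 was low throughout, at a mean of 1.47 RPM in unengaged and 0.155 RPM in engaged stimulated libraries. Fosb had a difference of -0.62 (SE 0.16) that did not pass (adjusted p = 0.0912).

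In stimulated CD4 cells 8 of 17 partners were higher and 7 lower (median 0.14 against -0.15 for all genes, of which 27.5% were higher and 40.1% lower), 4 of 26 kinases and factors higher and 12 lower (median -0.26), and 17 of 19 targets higher and 2 lower (median 2.18). The 15 of 17 partners and 16 of 26 kinases and factors called stand beside 67.7% of all genes. For the targets, the choice of the list and the filter favoured a high count here too. Atf3 rose by 3.35, Maff by 2.06 and Fosb by 1.73. Map3k1, a kinase upstream of JNK, had a difference of -1.71, and Map2k6, a p38 kinase kinase, one of -1.67. The targets Il4, Ccl4 and Ifng rose by 6.61, 6.48 and 6.05. With engagement 13 of 17 partners, 20 of 26 kinases and factors and 18 of 19 targets were lower and none higher. Beside them 41.2% of all genes were lower and 4.48% higher. For the targets, the choice of the list and the filter could favour a high count of lower genes as well. The medians of the lists were -0.25, -0.27 and -0.49 against -0.14 for all genes. With quantile normalization 5, 7 and 16 were lower and none higher, beside 1440 genes higher and 1301 lower overall. The largest differences, all of them also called with quantile normalization, were those of Maff (-0.62), Atf3 (-0.56) and Nfe2l1 (-0.49) among the partners, Srf (-0.54), Map2k3 (-0.52) and Elk1 (-0.42) among the kinases and factors, and Ccl3 (-1.38), Ifng (-1.38) and Il4 (-1.16) among the targets.

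The genes with the most similar pattern to each member were found by Pearson's r over group means of log2(RPM + 1), among 6681 genes in the hybridoma (12 groups) and 6832 in CD4 cells (10 groups), as a description. In the hybridoma Fos was closest to Tnfsf11 (r = 0.995), Fasl and Cd274, Fosl2 to Gfod1 (0.997), Rnf149 and Atp2b1, Junb to Baiap2 (0.997), Sc4mol and Nfkbia, Jun to Srsf7 (0.966), Atp6v1h and Snhg4, and Jund to Lamc1 (0.946), Rybp and Fyn. In CD4 cells Fosl1 was closest to Rcl1 (0.999), Ccl4 and Mybbp1a, Fosl2 to Mthfd1 (0.998), Tnfrsf9 and Prmt3, Fos to Psat1 (0.989), Pgam1 and Mesdc2, Junb to Slc25a3 (0.988), Ece1 and Tank, Jund to Kdm1a (0.973), Tapt1 and Hipk3, and Jun to Lass4 (0.945), Rhob and Zkscan17. The groups of a system share doses and reference libraries, and no gene appeared among the closest 3 of a member in both systems.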

How the data were processed

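CAGE libraries of the DO11.10 hybridoma (26) and of CD4+ T cells (22) were analysed from the authors' deposited tables of RPM, tags scaled to the library total, for clusters of start sites, each cluster carrying a gene symbol or none. The submitters' processing notes name BWA 0.7.12, HISAT2 2.0.5 and mm9; neither the calling of clusters nor the base of coordinates (0 or 1) is stated there. The deposited clusters held 91.0 to 92.3% of each hybridoma library and 81.8 to 87.1% of each CD4 library. Columns without a sample numbered 0. The deposited RPM values were whole tags within 0.1 tag for at least 99.98% of values in each library, so tags were recovered for edgeR 4.0.16 and DESeq2 1.42.0, run as alternatives.

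Clusters of 1 symbol were summed, genes with at least 1 RPM in 2 libraries kept, and log2(RPM + 1) fitted with limma 3.58.1 (R 4.3.3, Python 3.11.15) over all groups of a system, with Benjamini-Hochberg adjustment over all genes tested. Fold changes on this scale understate the change of low genes. Only the hybridoma fit without pairs, for the top dose against dose 0, was tried on simulated data. These held no pair or library effects, so they do not cover the other fits. Same-numbered hybridoma libraries with and without engagement deviated together at every dose (correlation 0.256 to 0.759), so pairs were also fitted as blocks; the pairing is read from the numbers in the sample names and this check. Other alternatives were pseudocounts of 0.5 and 3 RPM, other filters, quantile normalization, the most abundant cluster, only the groups compared, a B cell marker covariate (added after the data were seen), and leaving out each library. Half-maximal doses were interpolated between group means, at the level midway between dose 0 and the top dose of the same curve. The text names the members, the 3 genes most similar to each over the group means (mean of at least 10 RPM), and up to 3 called genes with the largest difference per list and comparison. A gene that this rule would name is not reported here. Members and lists were chosen with earlier results of these data known.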

Additional observations from a re-analysis of the deposited data

Results flagged for a closer look

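Effects of the same contrast that differed between the systems, by a test of the difference itself in the joint limma fit, were the responses to the top dose of Jun (2.63 on the log2 scale, hybridoma minus CD4), Fos (1.12) and Junb (1.04), and the change of the engagement effect of Jun from dose 100 to dose 10000 (2.31). The comparison of doses 100 and 10000 was not among those planned, so its calls are not those of a test fixed beforehand. Within CD4 cells that change was called for Jund (1.55) and Fosl2 (0.61), beside 27.1% of all genes, with 26% higher. The median of all genes itself changed by 0.29. Fosl2 lost this call with quantile normalization (0.31), edgeR and DESeq2. Within the hybridoma, in the fit with pairs as blocks, the change was called for Jun (1.89), Junb (0.69) and Fosl2 (0.60), with adjusted p = 0.00818, 0.0258 and 0.0358 with limma. That fit called 0.466% of all genes for this change, and in the fit without pairs none of these 3 members passed.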

How the results depend on the processing

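Leaving out each library in turn gave 4386 values for 168 results, of which 38 lost and 18 gained a call. The other settings gave 1752 values, of which 29 lost and 37 gained one. No called value changed its sign. The number of hybridoma members called for the mean engagement effect was 1, and 4 with the replicate block. Beyond the pair-blocked calls given above, the block changed no other call of a member in the hybridoma. In CD4 cells same-numbered libraries shared little (correlation 0.0129 to 0.255), and the replicate block left the members called at 5 for stimulation and 3 for engagement, while Jun at dose 0 (-0.61, adjusted p = 0.0244) and Fosl2 at 10 ng/ml (-0.53, adjusted p = 0.0391) gained a call. With that block 18.8% and 1.68% of all genes were called for engagement at these doses. Leaving out 1 library always gave 4 hybridoma members called for stimulation and 1 for engagement, and 5 to 6 and 3 to 4 CD4 members.

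Over all genes, hybridoma stimulation called 817 higher and 2095 lower, against 1298 and 1432 with quantile normalization, 1356 and 1705 with edgeR and 1479 and 1561 with DESeq2, and 1183 in all with only the groups compared. It called 1618 without unengaged library 2 at dose 0 and 1939 without unengaged library 3 at 10000 nM. Hybridoma engagement called 94 genes, 657 with the replicate block, 143 with DESeq2 and 155 with the B cell marker covariate. CD4 stimulation called 2812 higher and 4101 lower, and 3441 and 3268 with DESeq2. CD4 engagement called 4663 genes, 2741 with quantile normalization, 2959 with edgeR and 2596 with DESeq2. The cause of these differences was not tested. At 3 tags or fewer, as for Jun in some hybridoma libraries at 100 nM or less, depth limits what can be read.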
